A study of Mus musculus with 12 samples.

Results

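In these data, 9 genes of pyruvate entry and the citric acid cycle were followed in cultured mouse fat cells that received a let-7 microRNA mimic. They are the pyruvate carrier subunit Mpc1, pyruvate carboxylase Pcx, the pyruvate dehydrogenase subunit Pdha1 and its inhibitory kinase Pdk4, and the cycle enzymes Cs, Idh2, Idh3a, Ogdh and Mdh2, chosen by their place in the pathway, with earlier results of these data known. Each symbol matched 1 row of the deposited count table, so all 9 of its 15754 genes were found and tested. The cells were primary white adipocytes. Their precursors came from the stromal vascular cells of epididymal fat (eWAT) of male wild-type C57BL/6 mice, aged 8 weeks and on a chow diet. All 3 groups had the same culture: 20% serum for growth, then induction in 10% serum with insulin at 850 nM, IBMX at 250 µM and both dexamethasone and rosiglitazone at 1 µM, then rosiglitazone and insulin alone at these doses. On day 4 the cells were reverse-transfected with a negative control, a mimic of let-7d-5p or a mimic of let-7e-5p, and RNA was taken on day 7. Each group has 4 libraries, although the design text states n = 6, and the labels do not name the culture or animal behind a library. The p-values therefore cover the spread among these libraries and no more, and that spread may be technical.

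Pyruvate made in the cytosol enters mitochondria through a carrier built from MPC1 and MPC2. Inside, the pyruvate dehydrogenase complex turns it into acetyl-CoA, a step that the kinases PDK1 to PDK4 switch off, while pyruvate carboxylase turns it into oxaloacetate; citrate synthase joins the products and the cycle runs on from citrate. In white fat much of the citrate leaves again to supply carbon for fatty acids, and the carboxylase refills the cycle. A let-7 microRNA, loaded on an Argonaute protein, pairs through its seed with sites that lie mostly in 3′ UTRs, and the paired message is then broken down or its translation falls.

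The sequences of both mimicked microRNAs (RefSeq, GRCm38.p6) are shown because they share their seed, bases 2 to 8, in capitals, which is the part that selects most targets. let-7d-5p lies at chr13:48536078-48536099 on the minus strand and let-7e-5p at chr17:17830366-17830387 on the plus strand.
let-7d-5p: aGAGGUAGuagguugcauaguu
let-7e-5p: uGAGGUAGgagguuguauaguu
Counted from the 5′ end, with the base of let-7d first, they differ by A1U, U9G and C16U, all outside the seed.

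Matches to this seed were sought on the message strand as CTACCTC (pairs with bases 2 to 8) or TACCTCA (bases 2 to 7, then an A), which overlap in the 6 letters TACCTC, in the longest annotated 3′ UTR of each gene (GENCODE vM21, GRCm38). Among the 9 genes, only Pcx and Idh2 held a 7-letter match there, 1 each. Such a match of 7 or 8 letters is present in 17.0% of the 13547 tested genes with an annotated 3′ UTR. The sites are printed with 10 or 11 bases before the match, which is in capitals, beside the first site of Hmga2, a chromatin protein and a textbook let-7 target with 7 matches in its 3′ UTR.
Pcx 3′ UTR, chr19:4621586-4621606, plus strand: cttagggcttCTACCTCtggg
Idh2 3′ UTR, chr7:80094929-80094949, minus strand: aacgtgtgcttTACCTCAgac
Hmga2 3′ UTR, chr10:120364221-120364241, minus strand: cattcaatttCTACCTCAgca
The 6 letters TACCTC of the Pcx site start at base 309 of a 464-base 3′ UTR. This site is present in all 3 coding transcripts of the gene that have a 3′ UTR. That of Idh2 starts at base 178 of 270 and is present in 1 of 2 coding transcripts, the other having a 3′ UTR of 91 bases. Outside the 3′ UTR, Cs held a 7-letter match within its coding sequence.
Cs coding sequence, chr10:128358506-128358526, plus strand: tcatgcgtttgTACCTCAcca
The 3′ UTRs of Pdha1 (1574 bases), Pdk4 (2098 bases), Cs (1347 bases), Idh3a (1296 bases), Ogdh (968 bases), Mpc1 (499 bases) and Mdh2 (183 bases) held no match even of 6 letters. A match is a description of the letters and not evidence of binding.

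Totals ran from 15071299 to 33396316 counts per library. The sample identifiers in the labels form 2 series, and both hold 2 libraries of each group: replicates 1 and 2 are called series 1 and replicates 3 and 4 series 2. The labels give no meaning to this split, but the first principal component, with 81.9% of the variance, separated them, so every comparison was fitted with a series term and again within each series. All 10 adipocyte markers had counts in every library, led by the fatty acid binding protein Fabp4, with a summed level of 15600 to 17400 CPM (counts per scaled library total, the usual CPM scale) in series 1 and 3780 to 5550 CPM in series 2. Of 7 measured known let-7 targets, taken as a check of delivery, 6 were lower with let-7d and 5 with let-7e, and 0 were higher. Over all genes 9.81% were lower with let-7d and 5.69% with let-7e. Dicer1, which cuts microRNA precursors, had an edgeR log2 fold change of -0.52 ± 0.062 (SE) with let-7d and -0.45 ± 0.061 with let-7e, and Hmga2 -0.84 ± 0.098 and -0.59 ± 0.095.

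The genes that fell with the mimics were Pcx and Idh2, with let-7d as with let-7e, and they are also the genes with a seed match in the 3′ UTR. By edgeR's quasi-likelihood test (adjusted p under 0.05 over all genes), 2 of 9 fell with each mimic and 0 rose. Over all 15754 genes 9.81% fell and 6.41% rose with let-7d, and 5.69% fell and 3.81% rose with let-7e. The median log2 fold change of the 9 genes was -0.16 with let-7d and -0.066 with let-7e, against -0.0022 and -0.0019 over all genes. Both mimics were compared with the same control libraries, so the 2 comparisons are not independent of each other.

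**Figure D1:**
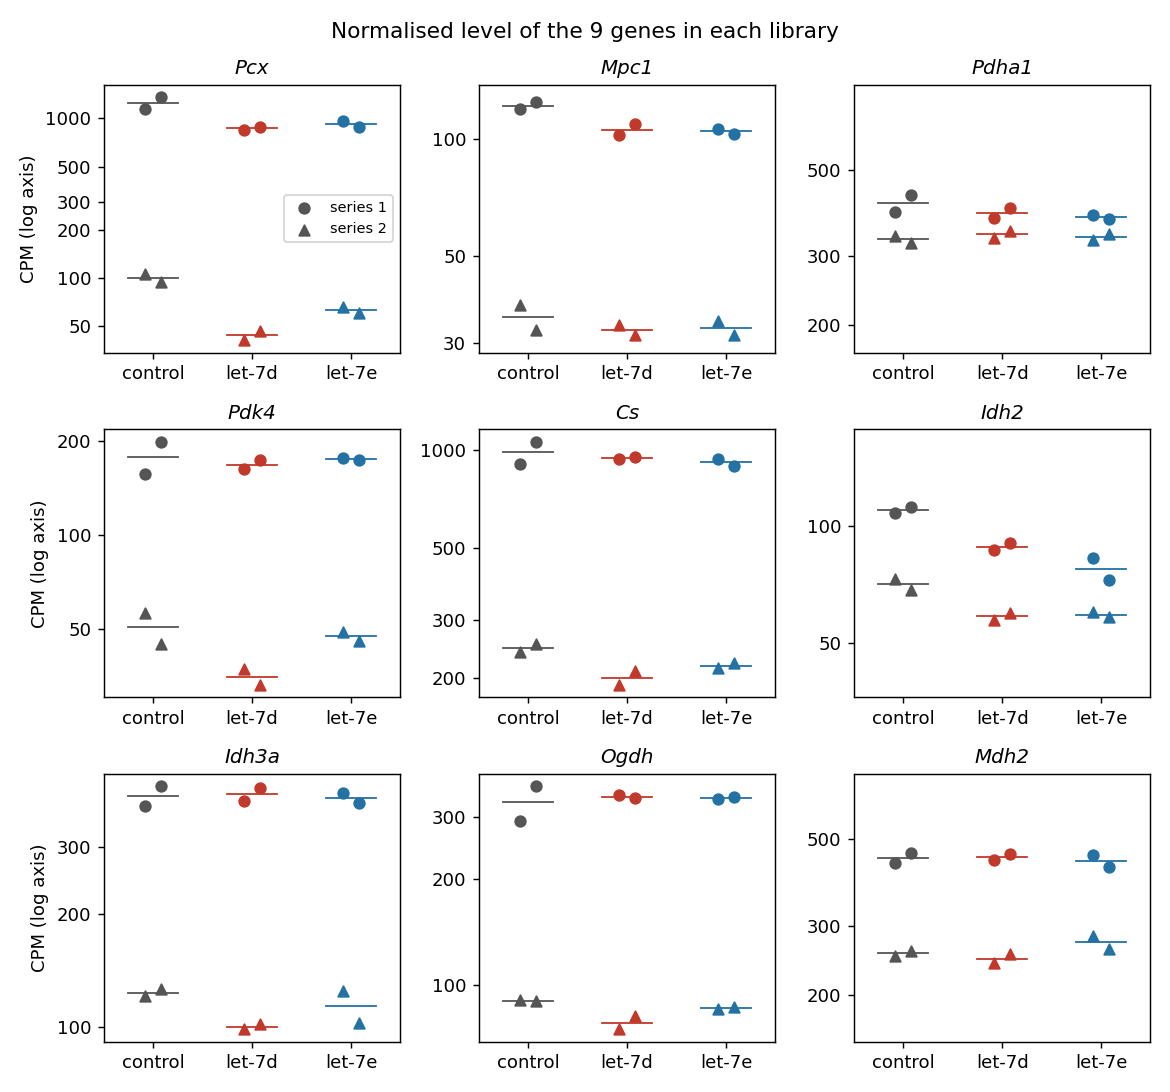
CPM of each of the 9 genes in the 12 libraries on log axes, by group, with circles for series 1, triangles for series 2 and a line at the mean of each pair. Pcx and Idh2 lie below the controls of their series in all 4 libraries of each mimic, and every gene is lower in the series 2 controls than in the series 1 controls.

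Pcx, the carboxylase that makes oxaloacetate from pyruvate (chr19:4510472-4621752, plus strand), gave the largest change of the 9 genes. Its level in control replicates 1 to 4 was 1150, 1360, 107 and 94.8 CPM. In the let-7d libraries it was 849, 890, 40.8 and 47.1 CPM, and in the let-7e libraries 970, 884, 65.7 and 60.8 CPM. Every mimic library lay below both controls of its own series. The log2 fold change was -0.84 ± 0.11 (SE) with let-7d, 1.79-fold lower (edgeR adjusted p = 9.63e-05), and -0.56 ± 0.11 with let-7e, 1.47-fold lower (edgeR adjusted p = 0.00396). Both calls held without any 1 of the 8 libraries compared, with values from -0.95 to -0.74 for let-7d and from -0.66 to -0.47 for let-7e.

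Within series 1, Pcx changed by -0.53 ± 0.094 with let-7d and within series 2, where its control level was 12.4-fold lower, by -1.20 ± 0.10 (edgeR adjusted p = 0.00274 and 2.58e-05). The test of this difference in response gave -0.67 ± 0.14 and an edgeR adjusted p of 0.0614, which misses the threshold that 0.241% of all genes passed, whereas DESeq2 called it (adjusted p = 0.00107). Of 7 other fits, 3 called this difference, DESeq2 and edgeR with library totals as the only scaling (adjusted p = 0.0416) among them. The rest did not. In 8 fits with 1 library left out, the difference ran from -0.78 to -0.55. With let-7e the values were -0.44 ± 0.094 in series 1 and -0.67 ± 0.099 in series 2 (edgeR adjusted p = 0.0117 and 0.00183), and the difference between them, -0.24 ± 0.14, was not called (edgeR adjusted p = 0.641; 0.00635% of all genes were). The let-7e call in series 1 was lost without control replicate 2 (-0.30, edgeR adjusted p = 0.0895), let-7e replicate 1 (-0.51, 0.0547) or let-7e replicate 2 (-0.37, 0.144).

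Markers of other cells moved in series 2 as well. There the summed level of 10 macrophage markers was 24.7 to 33.8 CPM in controls, 58.2 to 124 CPM with let-7d and 42.1 to 64.8 CPM with let-7e, and edgeR called 5 of 10 higher with let-7d, where 3.29% of all genes were higher. Within series 1 it called 2 of the 10 lower with each mimic. Among all genes, 6.28% (let-7d) and 4.02% (let-7e) were lower in that series. The lysozyme gene Lyz2, the most abundant of them, ran from 9.73 to 14.4 CPM in those controls and from 33.9 to 80.7 CPM with let-7d. Of the 10 adipocyte markers, 3 were lower with let-7d in series 2, against 5.26% of all genes. The summed level of these 10 markers there ran from 3780 to 5550 CPM in controls and from 3960 to 4690 CPM with let-7d. In all 12 libraries, edgeR called 3 of 10 macrophage markers higher with let-7d, but 0 under let-7e. Fibroblast and precursor markers were higher in 4 of 8 cases with let-7d and in 3 with let-7e. Among all genes, 6.41% and 3.81% were higher. Smooth muscle markers were lower in 3 of 6 and 2 of 6, where 9.81% and 5.69% of all genes were lower. Over both series, of the 6 endothelial and 6 mesothelial markers, edgeR, DESeq2 and limma-voom called 0 with either mimic, with 1 endothelial marker at an unadjusted edgeR p under 0.05 with let-7d. Within series 2 edgeR called 1 of the 6 endothelial markers higher with let-7d. The part of these shifts in the Pcx values was not tested. In bulk RNA, fewer cells of a type and less RNA per cell cannot be told apart.

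Idh2, the mitochondrial isocitrate dehydrogenase that makes NADPH (chr7:80094846-80115392, minus strand), fell less than Pcx. Its control levels were 108, 112, 73.1 and 68.5 CPM. With let-7d they were 86.8, 90.1, 57.4 and 60.0 CPM, and with let-7e 82.8, 72.5, 60.3 and 58.3 CPM. All 8 mimic libraries lay below both controls of their series. The log2 fold change was -0.29 ± 0.060 with let-7d, 1.23-fold lower (edgeR adjusted p = 0.00326), and -0.38 ± 0.059 with let-7e, 1.30-fold lower (edgeR adjusted p = 0.000797). Over all genes, 13.4% had no overlap with the controls in either series and were lower with let-7d, and 10.4% with let-7e; of the 9 genes these were Pcx and Idh2 with both.

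Within the series, Idh2 changed by -0.32 ± 0.072 and -0.27 ± 0.072 with let-7d (edgeR adjusted p = 0.0117 in series 1 and 0.0313 in series 2). With let-7e it changed by -0.50 ± 0.072 in series 1 (edgeR adjusted p = 0.000896), and stood at -0.26 ± 0.072 in series 2 without a call (edgeR adjusted p = 0.0788). Neither difference between the series was called, at 0.046 ± 0.10 for let-7d and 0.25 ± 0.10 for let-7e (edgeR adjusted p = 0.891 and 0.506). Single libraries ended the let-7d calls within a series: in series 1 the edgeR adjusted p was 0.106 without let-7d replicate 1 and 0.0737 without let-7d replicate 2. In series 2 it was 0.122 and 0.0663 without control replicates 3 and 4, and 0.216 and 0.0532 without let-7d replicates 3 and 4, with log2 fold changes from -0.32 to -0.22.

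**Figure D2:**
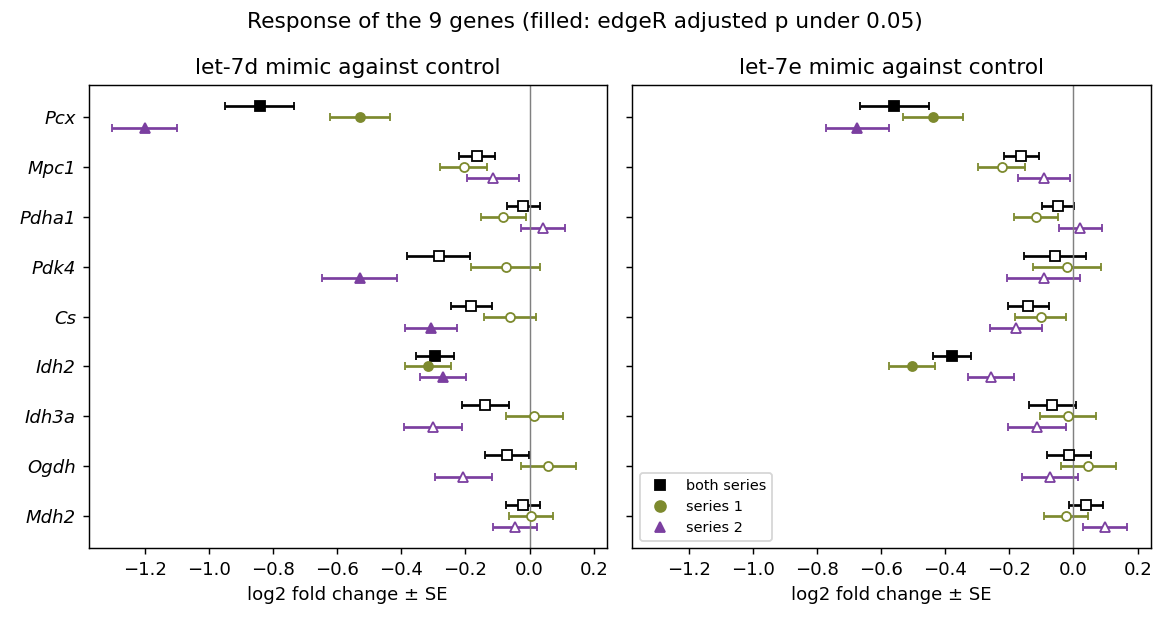
Log2 fold change against control ± SE from edgeR for the 9 genes with let-7d (left) and let-7e (right), over both series (squares) and within series 1 (circles) and series 2 (triangles), filled where the adjusted p was under 0.05. Pcx is farthest to the left in both panels, and Pdk4 and Cs are filled in series 2 with let-7d but not over both series.

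Pdk4 (chr6:5483351-5496309, minus strand) encodes a kinase that switches pyruvate dehydrogenase off and rises in fasting. Its control levels were 157, 199, 56.1 and 44.8 CPM, those with let-7d 162, 174, 37.0 and 33.0 CPM, and those with let-7e 176, 174, 48.9 and 45.7 CPM. The let-7d libraries of series 2 lay below both of their controls, while those of series 1 and all let-7e libraries lay between their controls. Over both series the change was not called, at -0.28 ± 0.098 with let-7d and -0.056 ± 0.097 with let-7e (edgeR adjusted p = 0.0583 and 0.791). With let-7d it passed in 2 of 8 fits with 1 library left out. These were without control replicate 1 (-0.38, edgeR adjusted p = 0.0120) and without let-7d replicate 2 (-0.36, 0.0319). Of 10 other fits 3 called it, DESeq2 among them (adjusted p = 0.0229).

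Within series 2, Pdk4 fell with let-7d by 0.53 ± 0.12 on the log2 scale (edgeR adjusted p = 0.0123), and within series 1 it stood at -0.075 ± 0.11 (0.724). The difference between the series, -0.45 ± 0.16, was not called (edgeR adjusted p = 0.226). The series 2 call was lost without control replicate 3 (-0.36, edgeR adjusted p = 0.0908) or let-7d replicate 4 (-0.45, 0.0655). The macrophage and adipocyte marker values given beside Pcx belong to the same libraries, and their part in this value was not tested either.

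Cs, citrate synthase, the first enzyme of the cycle (chr10:128337734-128362479, plus strand), was likewise called within series 2 only in part of the fits. Control levels were 905, 1060, 240 and 253 CPM, let-7d levels 935, 952, 190 and 209 CPM, and let-7e levels 939, 895, 214 and 222 CPM. In series 2 all mimic libraries lay below both controls, and in series 1 all but let-7e replicate 2 lay between them. The change over both series was not called, at -0.18 ± 0.064 with let-7d and -0.14 ± 0.064 with let-7e (edgeR adjusted p = 0.0634 and 0.195). Both passed in 1 of 8 fits with 1 library left out, that without control replicate 1 (-0.24 and -0.20, edgeR adjusted p = 0.00893 and 0.0360). Of 10 other fits, 2 called the let-7d value, DESeq2 among them (adjusted p = 0.0234), and 0 the let-7e value. Within series 2 Cs fell with let-7d by 0.31 ± 0.081 (edgeR adjusted p = 0.0305), a call lost without control replicate 4 (-0.27, 0.183) or let-7d replicate 3 (-0.24, 0.248), with library totals only (0.0511) and with only the 8 libraries compared in the fit (0.0653). Within series 1 its value was -0.061 ± 0.080 (edgeR adjusted p = 0.692).

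Within series 2, edgeR called 4 of the 9 genes lower with let-7d (Pcx, Pdk4, Cs and Idh2), where 5.26% of all genes were lower. The calls of Idh2, Pdk4 and Cs there depended on single libraries, as given above, while that of Pcx did not. With 1 library of that comparison left out, Pcx ran from -1.31 to -1.10 and Idh2 from -0.317 to -0.223. Pdk4 ran from -0.68 to -0.357 and Cs from -0.375 to -0.243. Within series 1 edgeR called 2 of the 9 lower with let-7d (Pcx and Idh2), where 6.28% were. With let-7e it called Pcx and Idh2 in series 1, against 4.02% of all genes lower, and Pcx in series 2, against 1.56%.

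The entry genes Mpc1 and Pdha1 were not called. Mpc1, a subunit of the mitochondrial pyruvate carrier (chr17:8282904-8297661, plus strand), had 119, 124, 37.5 and 32.5 CPM in controls, 102, 109, 33.3 and 31.5 CPM with let-7d and 106, 103, 34.2 and 31.4 CPM with let-7e. In series 1 every mimic library was below both controls, and in series 2 replicate 3 of each mimic lay between them. Its log2 fold change was -0.16 ± 0.056 with let-7d and -0.16 ± 0.055 with let-7e (edgeR adjusted p = 0.0567 and 0.0787). Both passed in 1 of 8 fits with 1 library left out, that without control replicate 4 (-0.21 for each, edgeR adjusted p = 0.0122 and 0.0166). Of 10 other fits, 2 called the let-7d value, DESeq2 among them (adjusted p = 0.0302), and 1 the let-7e value. Pdha1, the catalytic alpha subunit that PDK4 phosphorylates (chrX:160122209-160138413, minus strand), ranged from 325 to 431 CPM over all 12 libraries. Its values were -0.020 ± 0.051 with let-7d and -0.048 ± 0.051 with let-7e (edgeR adjusted p = 0.846 and 0.640), with 95% intervals from -0.13 to 0.089 and from -0.16 to 0.060. Mpc1 shares 480 exonic bases with 4930506C21Rik and Pdha1 603 with Map3k15 on opposite strands, and whether counting used the strand is not given in the sources used here, so both levels are uncertain, that of Mpc1 also through the pseudogene Mpc1-ps.

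The remaining cycle enzymes were not called with either mimic. Idh3a, the catalytic subunit of the NAD-dependent isocitrate dehydrogenase (chr9:54586334-54604661, plus strand), ran from 386 to 436 CPM over the 6 libraries of series 1 and from 98.7 to 126 CPM over those of series 2. It had log2 fold changes of -0.14 ± 0.074 and -0.066 ± 0.073 (edgeR adjusted p = 0.223 and 0.661). Ogdh, the first subunit of the 2-oxoglutarate dehydrogenase complex (chr11:6291633-6356642, plus strand), stood at -0.071 ± 0.068 with let-7d and -0.013 ± 0.068 with let-7e (edgeR adjusted p = 0.536 and 0.941). Mdh2, the malate dehydrogenase that closes the cycle (chr5:135778480-135790398, plus strand), stood at -0.020 ± 0.052 and 0.038 ± 0.052 (edgeR adjusted p = 0.848 and 0.730). The 95% intervals with let-7d ran from -0.29 to 0.017 for Idh3a, from -0.21 to 0.074 for Ogdh and from -0.13 to 0.091 for Mdh2.

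The let-7d and let-7e libraries were then compared directly, to ask whether mimics with the same seed acted differently on these genes. EdgeR called 0 of 9 genes, where 24 of all genes (0.152%) were called, and DESeq2 and limma-voom called 0 as well. At an unadjusted edgeR p under 0.05 there were 2: Pcx, with a difference of -0.28 ± 0.11 (95% interval -0.51 to -0.054, adjusted p = 0.424), and Pdk4, with -0.23 ± 0.097 (-0.43 to -0.022, adjusted p = 0.486). Idh2 differed by 0.085 ± 0.060 (-0.042 to 0.21, edgeR adjusted p = 0.703). Values that miss the threshold do not show that the mimics act alike.

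Between the control libraries alone, all 9 genes were lower in series 2 than in series 1, where 33.8% of all genes were lower and 35.2% higher. The log2 differences were -3.64 ± 0.11 for Pcx (12.4-fold), -1.86 ± 0.089 for Ogdh, -1.81 ± 0.11 for Pdk4, -1.80 ± 0.078 for Mpc1 and -1.74 ± 0.092 for Idh3a, and Cs was 3.99-fold lower. Mdh2 (-0.81 ± 0.069), Idh2 (-0.64 ± 0.072) and Pdha1 (-0.31 ± 0.069) differed least, with edgeR adjusted p up to 0.000983 over the 9 genes. All 10 adipocyte markers were lower as well, from -4.38 to -1.38 with a median of -2.35, and so were 10 of 10 macrophage markers (median -3.80). Fibroblast and precursor markers were higher in 6 of 8 and lower in 1, and smooth muscle markers higher in 5 of 6 and lower in 1. What separates the series and these marker shifts cannot be told apart in this design.

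**Figure D3:**
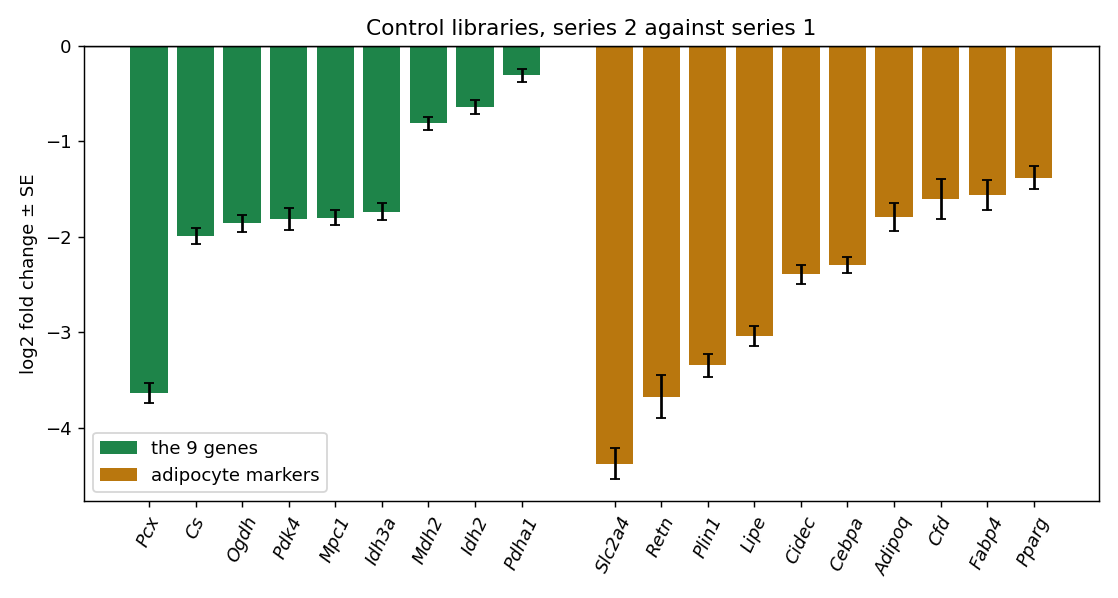
Log2 fold change of series 2 against series 1 in the control libraries, bars ± SE from edgeR, for the 9 genes (green) and the 10 adipocyte markers (brown). All bars point down, from -0.31 for Pdha1 to -3.64 for Pcx among the 9 genes and from -1.38 to -4.38 among the markers.

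The order of the genes by level per kilobase of exon therefore changed. The length used joins all annotated exons of a gene, 5779 bases for Cs and 3562 for Mdh2. The transcripts searched for sites are shorter: 1392 coding and 1347 3′ UTR bases for Cs, and 1014 and 183 for Mdh2. The order of genes within a series may thus differ with another choice of length. In the controls of series 1, Pcx was highest with 242 to 286 CPM per kb, followed by Cs (157 to 183), Mdh2 (122 to 130) and Pdha1 (104 to 115), and then by Idh3a (76.1 to 86.0). Ogdh (53.5 to 67.1) overlapped both Mpc1 (57.2 to 59.6) and Pdk4 (44.7 to 56.7), of which Mpc1 was the higher, and Idh2 was lowest with 41.7 to 43.3 CPM per kb. In the controls of series 2, Pdha1 led with 87.0 to 90.8 CPM per kb before Mdh2 (70.5 to 73.0) and Cs (41.5 to 43.8), and Pcx stood at 19.9 to 22.5 CPM per kb, below Idh2 (26.5 to 28.2) and Idh3a (23.9 to 24.8).

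The other genes of the pathway were taken from 7 lists with 65 genes in all, Pcx, Idh2 and the other 7 included. EdgeR called 16 lower and 2 higher with let-7d, where 9.81% of all genes were lower and 6.41% higher. With let-7e it called 6 lower and 0 higher, where 5.69% of all genes were lower and 3.81% higher. The same shares of all genes stand beside the counts of each list below. Of the 6 genes of pyruvate and lactate transport and lactate dehydrogenase, 2 fell with let-7d: Slc16a3, which exports lactate (-0.86 ± 0.18, edgeR adjusted p = 0.00421), and Ldha, lactate dehydrogenase A (-0.32 ± 0.098, 0.0350). Slc16a3 fell with let-7e too (-0.61 ± 0.18, edgeR adjusted p = 0.0415), while Ldha stood at -0.21 ± 0.099 (0.209). Slc16a3 had 149, 194, 130 and 136 CPM in controls, 71.1, 73.8, 106 and 90.7 CPM with let-7d and 71.0, 79.8, 153 and 105 CPM with let-7e, so in series 2 let-7e replicate 3 was above both controls. Ldha had 1360, 1480, 1520 and 1470 CPM in controls, 999, 1000, 1430 and 1320 CPM with let-7d and 990, 1000, 1750 and 1440 CPM with let-7e. With let-7d it fell in series 1 (-0.51 ± 0.089, edgeR adjusted p = 0.00239) and stood at -0.12 ± 0.088 in series 2 without a call (0.447); the difference in response, 0.39 ± 0.12, was not called (edgeR adjusted p = 0.184). The call of Ldha over both series was lost without control replicate 1 or 2 or let-7d replicate 1, 2 or 4 (edgeR adjusted p from 0.0767 to 0.110). That of Slc16a3 with let-7e was lost without control replicate 1 or 2 or let-7e replicate 1, 2 or 4 (0.0973 to 0.166).

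Of the 5 subunits of pyruvate dehydrogenase, Dlat, the acetyltransferase core, fell with let-7d (-0.20 ± 0.059, edgeR adjusted p = 0.0271); the call was lost without control replicate 2, 3 or 4 or let-7d replicate 3 or 4 (0.0564 to 0.0830). With let-7e edgeR, DESeq2 and limma-voom called 0 of 5, with 1 at an unadjusted edgeR p under 0.05. Of the 7 regulators of the complex, 3 fell and 1 rose with let-7d. Pdk2, another inhibitory kinase, changed by -0.41 ± 0.10 with let-7d and -0.43 ± 0.10 with let-7e (edgeR adjusted p = 0.0111 and 0.0123), the latter with an adjusted p of 0.0519 without control replicate 2. Pdpr, a regulatory subunit of the phosphatase, changed by -0.32 ± 0.067 and -0.22 ± 0.066 (edgeR adjusted p = 0.00367 and 0.0489), but its let-7e call was lost without any 1 of 7 libraries, all but control replicate 1 (0.0583 to 0.161). The catalytic phosphatase subunits, which switch the complex on, went apart with let-7d: Pdp1 rose (0.42 ± 0.090, edgeR adjusted p = 0.00506) and Pdp2 fell (-0.19 ± 0.062, 0.0454). The call of Pdp2 was lost without control replicate 2 or 4 or any 1 of the let-7d libraries (0.0725 to 0.153).

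In the cycle list, 2 of 19 genes fell with let-7d and 1 rose, with a median of -0.050, and with let-7e 1 fell (Idh2), with a median of -0.043. These shares are near those over all genes (9.81% lower and 6.41% higher with let-7d, 5.69% lower with let-7e). Beside Idh2, Dlst, the succinyltransferase core of the 2-oxoglutarate dehydrogenase complex, changed by -0.19 ± 0.049 with let-7d (edgeR adjusted p = 0.0161, or 0.0571 without let-7d replicate 3). Ogdhl, a relative of Ogdh, rose by 0.46 ± 0.14 from a low level of 4.48 to 9.78 CPM in controls (edgeR adjusted p = 0.0349), a call lost without control replicate 1, 2 or 3 or let-7d replicate 1, 2 or 4 (0.0627 to 0.116).

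Genes around citrate export and the return of its carbon to pyruvate fell in 5 of 11 cases with let-7d, with a list median of -0.25, and in 1 case with let-7e, which was Pcx (median -0.15). They were Pcx, the citrate carrier Slc25a1 (-0.28 ± 0.055), the citrate lyase Acly (-0.29 ± 0.060), the cytosolic aconitase Aco1 (-0.25 ± 0.061) and the malic enzyme Me1 (-0.33 ± 0.066), with edgeR adjusted p from 9.63e-05 to 0.0117. With let-7e the latter 4 stood between -0.19 and -0.12, without a call (edgeR adjusted p from 0.0628 to 0.259). DESeq2 called Acly, Me1 and Slc25a1 with let-7e as well. Acly had 1130, 1270, 226 and 238 CPM in controls, 941, 951, 181 and 212 CPM with let-7d and 1060, 977, 207 and 217 CPM with let-7e. Each mimic library of Acly was thus below both controls of its series.

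Of the 8 genes for the supply of lipoate, biotin and thiamine, cofactors of these enzymes, 3 fell with let-7d, among them the thiamine carrier Slc19a2 (-0.37 ± 0.078, edgeR adjusted p = 0.00408) and the biotin carrier Slc5a6 (-0.39 ± 0.13, 0.0419). Slc19a2 fell with let-7e too (-0.29 ± 0.077, edgeR adjusted p = 0.0286), a call lost without control replicate 1, 2 or 4 or let-7e replicate 1 or 3 (0.0568 to 0.110). The let-7d call of Slc5a6 was lost without control replicate 2, 3 or 4 or let-7d replicate 1, 2 or 3 (0.0588 to 0.104). In the malate-aspartate and glutamate list, edgeR, DESeq2 and limma-voom called 0 of 10 genes with either mimic. At an unadjusted edgeR p under 0.05 there were 2 with let-7d and 1 with let-7e, led by the aspartate carrier Slc25a13 (-0.30 ± 0.11, edgeR adjusted p = 0.0780, and -0.28 ± 0.11, 0.126).

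**Figure D4:**
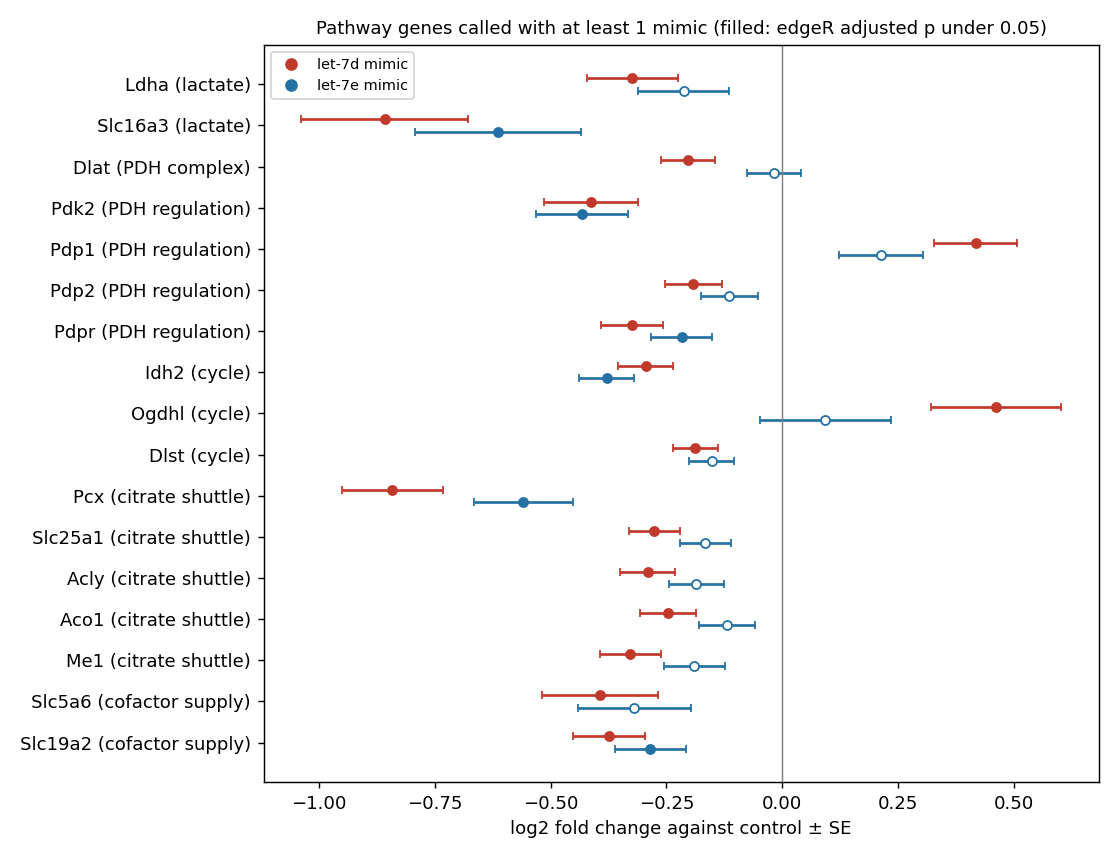
Log2 fold change against control ± SE from edgeR for 17 of the 18 pathway genes called with at least 1 mimic, red for let-7d and blue for let-7e, filled where the adjusted p was under 0.05. Of these 17, 15 lie left of 0 with let-7d, and Pdp1 and Ogdhl lie to the right.

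Of the 65 pathway genes, 12 held a 7- or 8-letter seed match in the 3′ UTR, and 6 of these 12 fell with let-7d (Dlst, Idh2, Pcx, Pdp2, Pdpr and Slc5a6) and 3 with let-7e (Idh2, Pcx and Pdpr). Of the 53 without such a match, 10 fell with let-7d and 3 with let-7e (Pdk2, Slc16a3 and Slc19a2). Over all genes with a 3′ UTR, 22.1% of those with a match and 8.65% of those without fell with let-7d, and 13.5% and 4.78% with let-7e. Genes without such a 3′ UTR match that fell with let-7d include the citrate genes Acly, Aco1, Me1 and Slc25a1 and the lactate genes Ldha and Slc16a3. Of these, Slc16a3 held 2 matches of 7 or 8 letters in its coding sequence, where 19.4% of all genes held any. Pdk2, Slc19a2 and Dlat, also without such a 3′ UTR match, held 1 each in the coding sequence. Slc19a2 also held a 6-letter match in its 3′ UTR.

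Pdk4 is known to be induced through nuclear receptors and FoxO factors, so 11 genes that share this control were set beside it. With let-7d 1 rose and 1 fell, and likewise with let-7e, which with let-7d is near the share over all genes (6.41% higher and 9.81% lower); with let-7e 3.81% rose and 5.69% fell. Klf15, a transcription factor induced by glucocorticoids, changed by 0.74 ± 0.14 and 0.46 ± 0.14 (edgeR adjusted p = 0.00172 and 0.0456), and Tsc22d3, a glucocorticoid-induced leucine zipper protein, by -0.30 ± 0.053 and -0.22 ± 0.052 (0.00101 and 0.0148). The let-7e call of Klf15 was lost without control replicate 1, 2 or 4 or let-7e replicate 1 or 4 (0.0784 to 0.183), and that of Tsc22d3 without let-7e replicate 2 (0.0550).

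The genes whose levels ran most like those of Pcx over the 12 libraries, after the mean of each series was removed, were Nat8l (Pearson r = 0.990), Fitm2 (0.984), Ube2z (0.976), Sephs2 (0.973) and Slc16a10 (0.969), out of 11202 genes. For Pdk4 they were Itga7 (0.965), Plin5 (0.962), Abcd2 (0.937), Adipor2 (0.935) and Vgll4 (0.918). The 12 values share libraries and treatment, so these are descriptions without a test. Among the 9 genes themselves, Pcx ran closest to Cs (r = 0.87) and Pdk4 (0.77), and least closely to Pdha1 (0.16).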

How the data were processed

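The authors deposited raw counts per Ensembl gene for 12 libraries, 4 per group, and had removed low-CPM genes, per the table's name. The submitters' processing notes name STAR and GRCm38.p6. How reads were counted, strand included, is not given in the sources used here, and a second deposited table was not used here. Of the gene identifiers, 15736 of 15754 matched a symbol.

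The 9 genes, the gene lists and the tests were chosen with earlier results of these data known. Counts were scaled by TMM and tested with edgeR 4.0.16 (R 4.3.3), quasi-likelihood, on all 12 libraries, with terms for group and identifier series (8 residual degrees of freedom). Comparisons within and between the series used a mean for each of the 6 combinations of group and series. Tests were two-sided, and p-values were adjusted after Benjamini and Hochberg over all 15754 genes, with calls at an adjusted p under 0.05. The test was checked on simulated counts for let-7d against control, where the share of false calls among all calls was above the nominal level and small changes were missed more often than large ones. Alternatives used DESeq2 1.42.0, limma-voom (limma 3.58.1), other scaling, a filter on low counts, other sets of libraries and the replicate number as a block. Replicates differed by more than counting noise (chi-square of 2.37 to 10.2 per degree of freedom).

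Named in the text are the 9 genes, each pathway gene called against control with either mimic (else the one with the smallest p), Dicer1 and Hmga2, the most abundant marker of a cell type, and the 5 genes most like Pcx and Pdk4 among those whose average log2 CPM reached 2. Other markers are given as counts. The values of 1 called pathway gene are not reported here; it is included in the counts. Seed matches were found by exact search with Python 3.11.15.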

Additional observations from a re-analysis of the deposited data

How the results depend on the processing

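The falls of Pcx and Idh2 kept their direction under every alternative run, and both lost their calls without a series term, where the let-7d and let-7e comparisons called 7 and 0 genes in all, 0 of the 9 genes and 0 pathway genes, and the comparison of the mimics 1 gene. The Idh2 call was also lost in series 2 fitted alone (edgeR adjusted p = 0.0654 for let-7d, 0.123 for let-7e). The cause of the changes below was not tested, except that fits of 1 series hold 6 libraries. What depth limits was not tested. Values within a series rest on 2 libraries a group, and a fit that leaves 1 there assumes that it varies like the others.

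DESeq2 called 5 of the 9 genes with let-7d, 10 pathway genes with let-7e, and 115 genes and 1 pathway gene (Ldhb) between the mimics. The share of all genes that it called against control is not given here, so its counts against control stand without a background. For the difference in response between the series it called 195 genes with let-7d, 1 of the 9 (Pcx) among them, and 50 with let-7e. Limma-voom called 16 and 0 genes there, a filter at 1 CPM in 4 libraries 22 with let-7d, upper quartile scaling 2 with let-7e, and fits of only the 8 libraries compared 24 and 2. With library totals only, 69 genes with let-7d, 1 of the 9 among them, and 2 with let-7e differed in response, 11 genes differed between the mimics, and 2 of the 9 were called with let-7d within series 2. Between the mimics, fits of only their 8 libraries called 105 genes, and series 1 and series 2 alone 2 genes and 1 gene. Series 1 alone gave 11 pathway genes with let-7d, and the share of all genes in that fit is likewise not given here. Series 2 alone gave 759 genes and 9 pathway genes with let-7d, and 194 genes, 1 of the 9 and 2 pathway genes with let-7e.

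Replicate numbers pair no samples by the labels, and the correlations of same-numbered deviations ran from -0.161 to 0.427. With the replicate number as a block, 4 of the 9 genes were called with let-7d (Pcx, Idh2, Mpc1 and Pdk4), and 5 genes between the mimics. The share of all genes called with let-7d in that fit is not given here either. For the difference in response it called 163 genes with let-7d, 1 of the 9 (Pcx) among them, and 33 with let-7e.

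The reversed values were all without a call. Those from fits other than leaving out 1 library lay near 0, up to 0.0660, and are given next. With 1 library left out they reached 0.167, for Pdk4 with let-7e within series 1 without control replicate 2. With let-7d, Pdha1 and Mdh2 stood at 0.00585 and 0.00521 under upper quartile scaling and at 0.0215 and 0.0210 with library totals only. Within series 1, Pdk4 with let-7e stood at 0.00161 and 0.0109 under these scalings. Without a series term Ogdh stood at 0.00334 with let-7d and 0.0202 with let-7e. In series 1 alone Idh3a, Ogdh and Mdh2 stood at 0.0232, 0.0660 and 0.0132 with let-7d, and Ogdh and Mdh2 at 0.0571 and -0.0119 with let-7e. In series 2 alone Pdha1 stood at 0.0577 with let-7d and 0.0222 with let-7e.

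Leaving out each library in turn gave ranges as follows. With let-7d, 1781 to 2535 genes and 2 to 4 of the 9 were called, Pdha1 ran from -0.0474 to 0.0303 and Mdh2 from -0.0438 to 0.0066. With let-7e, 844 to 1456 genes and 2 to 7 pathway genes were called, the latter lowest without control replicate 2. There Pdha1 ran from -0.0759 to 0.00234, Pdk4 from -0.152 to 0.0393, Ogdh from -0.0963 to 0.0325 and Mdh2 from -0.00175 to 0.0751. Between the mimics 3 to 17 genes were called. Within series 1, 429 to 1312 genes and 1 to 2 of the 9 were called with let-7d, with Pdk4 from -0.239 to 0.0939 and Cs from -0.174 to 0.0499. With let-7e there, 255 to 899 genes and 1 to 2 of the 9 were called, with Pdk4 from -0.184 to 0.167 and Cs from -0.216 to 0.0273. Within series 2, 334 to 1406 genes were called with let-7d, 2 of the 9 in each fit, and 138 to 326 genes with let-7e, with Pdk4 from -0.244 to 0.0789. For the difference in response, 0 to 219 genes and 0 to 1 of the 9 were called with let-7d, with Idh2 from -0.000214 to 0.0935, and 0 to 153 genes with let-7e, with Pdk4 from -0.259 to 0.0985.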
